A study of Homo sapiens with 6 samples.

Results

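The comparison described here sets the H3K9me3 peaks called in PC-3 cells after 24 h of TGF-β1 against those called in untreated PC-3 cells, by ChIP-seq. All called peaks outside chromosome Y were taken, which gave 1237 of the 1334 control peaks and 264 of the 272 peaks at 24 h. PC-3 cells are an established line from a bone metastasis of a prostate adenocarcinoma. Cells of both groups were starved of serum for 24 h. The treated cells then received the cytokine TGF-β1, at 5 ng/mL and for 24 h, and the control cells received none. The series holds 6 libraries, of which the 2 immunoprecipitated libraries of these groups are used, each with 1 input library of sheared DNA without antibody. Each group is 1 library of 1 cell line, so every difference between the lists is described without a test. Peak lists hold no expression values, and the identity of the cells was not checked.

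H3K9me3 is histone H3 trimethylated at lysine 9. SUV39H1 and SUV39H2 write the mark over the satellite repeats beside centromeres, SETDB1 writes it over transposable elements and zinc finger gene clusters on the arms, and HP1 proteins bind it. TGF-β1 signals through its receptors and the SMAD proteins, and in epithelial tumour cells it is known for inducing an epithelial-mesenchymal transition with new expression of matrix genes. A called peak marks a place where ChIP fragments exceed a local background. A place without a called peak is not thereby shown to lack the mark.

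The control peaks covered 367.2 kb and those at 24 h 75.9 kb. Median peak width was 236.0 bp in the control and 235.5 bp at 24 h. The narrowest peak had 179 bp in the control and 192 bp at 24 h, and 288 control peaks and 32 peaks at 24 h were under 200 bp. Strength is given as the authors' fold enrichment at the summit and as −log10 q, the false discovery value of the peak. Both belong to single peaks, and −log10 q also depends on depth, so neither measures a change between lists. Median fold was 3.802 in the control and 3.11 at 24 h, and median −log10 q was 3.61 and 10.7. No read total is given by the lists. The lowest local background, read as the genome-wide one, was 1.89 fragments in the control and 2.66 at 24 h. Where the local background was at that level, the lowest summit that was called had 10 fragments in the control, 5.30 times the background, and 13 at 24 h, 4.88 times. Peak names of the 24 h list carry a word for filtered alignments and control names do not, so the processing of the lists may have differed, and its part in the results was not tested.

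Most of the peaks called in both lists lay beside centromeres. Of the 1237 control peaks, 126 had a 24 h peak overlapping by at least 1 bp, or 10.2% (95% exact binomial interval 8.56 to 12.01). Of the 264 peaks at 24 h, 135 overlapped a control peak, or 51.1% (44.9 to 57.3). Within 2 Mb of a centromere or large heterochromatin gap of hg19, 112 of 417 control peaks had a 24 h peak (26.9%, 22.7 to 31.4). On the chromosome arms, farther than 2 Mb from such gaps, 14 of 820 did (1.71%, 0.936 to 2.85). In the other direction, 120 of 147 peaks at 24 h near gaps overlapped a control peak (81.6%, 74.4 to 87.5), and 15 of 117 on the arms did (12.8%, 7.36 to 20.3). Such intervals reflect the error of counting alone, and peaks that neighbour each other are not independent. With centromere gaps alone, the arm share of the control peaks was 4.47%. With both lists cut to folds at or above their own medians, 2.08% of control peaks and 9.85% of 24 h peaks overlapped.

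Strong and wide control peaks had a 24 h peak more often than weak and narrow ones, at both kinds of place. Near gaps the share was 2 of 106 for control peaks whose −log10 q was under 5 (1.89%, 0.229 to 6.65), 13 of 127 from 5 to 20 (10.2%, 5.56 to 16.9), 60 of 128 from 20 to 100 (46.9%, 38.003 to 55.9) and 37 of 56 at 100 or more (66.1%, 52.2 to 78.2). On the arms it was 0 of 663 under 5, which allows a share of up to 0.555% by the exact interval, 5 of 112 from 5 to 20 (4.46%, 1.47 to 10.1), 6 of 40 from 20 to 100 (interval 5.71% to 29.8%) and 3 of 5 at 100 or more. Between a −log10 q of 20 and 100 the interval of the arms lay below that near gaps. Many of these 40 arm peaks lay together in the genes ATR and THAP9, described below, and none of those was shared. The 2 intervals are therefore no test of the arms against the places near gaps. By width, 31 of 60 control peaks of 500 bp or more near gaps had a 24 h peak (51.7%, 38.4 to 64.8), against 5 of 65 under 200 bp (7.69%, 2.54 to 17.05). On the arms these counts were 8 of 34 (23.5%, 10.7 to 41.2) and 0 of 223, which allows up to 1.64%. By −log10 q, peaks of the 24 h list near gaps followed the same order. There 4 of 16 under 5 overlapped a control peak, 23 of 35 from 5 to 20 (65.7%, 47.8 to 80.9), 51 of 54 from 20 to 100 (94.4%, 84.6 to 98.8) and 42 of 42 at 100 or more. On the arms 3 of 89 under 5 did (3.37%, 0.701 to 9.54), 6 of 19 from 5 to 20 (31.6%, 12.6 to 56.6), 5 of 7 from 20 to 100 and 1 of 2 at 100 or more. By width, 1 of 18 arm peaks under 200 bp at 24 h was shared, 3 of 72 from 200 to under 300 bp, 8 of 22 from 300 to under 500 bp and 3 of 5 at 500 bp or more. Fold went the other way: shared control peaks had a median fold of 2.89 and control-only peaks 3.89. These medians pool both kinds of place. Near gaps they were 2.85 and 3.24, and on the arms 3.49 and 4.04. The median local backgrounds of shared and control-only peaks were 75.1 and 1.70 times the genome-wide one over both places. They were 87.0 and 10.4 times near gaps, and 20.4 and 1.40 times on the arms.

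**Figure D1:**
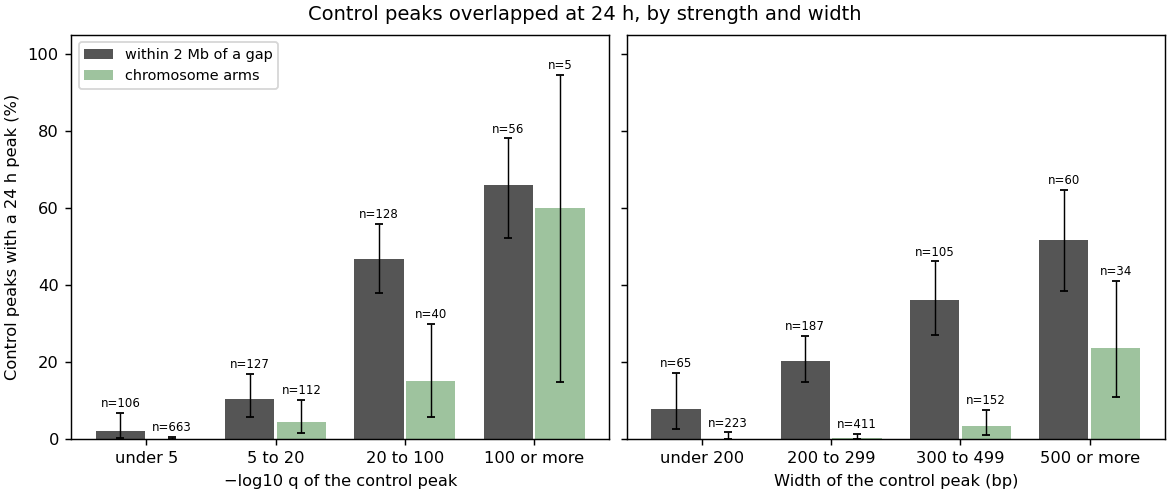
Share of control peaks with an overlapping 24 h peak (vertical axis, percent) by −log10 q of the control peak (left) and by its width in bp (right), near gaps in grey and on the arms in green. Lines are 95% exact binomial intervals, and n is the number of control peaks. Near gaps the share climbs from 1.89% to 66.1% over the −log10 q classes, and on the arms it is 0 of 663 in the lowest class.

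Shared peaks lay close to the gaps. Within 50 kb of a gap, 32 of 96 control peaks had a 24 h peak (33.3%, 24.0 to 43.7), and from 50 to 200 kb 62 of 151 did (41.1%, 33.1 to 49.3). From 200 to 1000 kb it was 13 of 112 (11.6%, 6.33 to 19.03) and from 1000 to 2000 kb 5 of 58 (8.62%, 2.86 to 18.98). The median −log10 q of the control peaks moved with this distance, with 32.6, 32.8, 6.38 and 4.70 in the same order, and its part in the shares was not tested. The median step between successive peaks near gaps was 2.06 kb in the control and 2.64 kb at 24 h, and 63.5% and 64.0% of steps were under 5 kb. On the arms the median step was 591 kb in the control and 830 kb at 24 h. Of the 305 control-only peaks near gaps, 102 had a 24 h peak within 5 kb, and their median distance to one was 14.5 kb. The 806 control-only peaks on the arms had a median distance of 4469 kb to a 24 h peak. Chromosome 15 has no 24 h peak, so its control peaks, 10 near gaps and 33 on the arms, are left out of these 2 medians.

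Chains of at least 6 peaks of either list, each within 100 kb of the next, gave 25 satellite blocks near gaps and 11 domains on the arms. Letters number the chains along a chromosome. The hg19 sequence beside these gaps is rich in satellite DNA, but no repeat annotation was used here. Of the 25 blocks, 23 had a 24 h peak and 21 had a peak called in both lists, and together the blocks held 330 control peaks and 123 at 24 h. Of the 330 control peaks, 103 had a 24 h peak (31.2%, beside 26.9% of all control peaks near gaps). The strongest control peak of a block by −log10 q was among the shared ones in 11 of the 25. In the 21 blocks with both shared and control-only peaks, shared peaks had the higher median −log10 q in 16 and the larger median width in 16. Thus in 5 of the 21 the shared control peaks were no stronger by −log10 q than those the 24 h list lacked. The median of the blocks' own spacing was 2013 bp in the control, and 3866 bp at 24 h over the 19 blocks with more than 1 such peak.

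**Figure D2:**
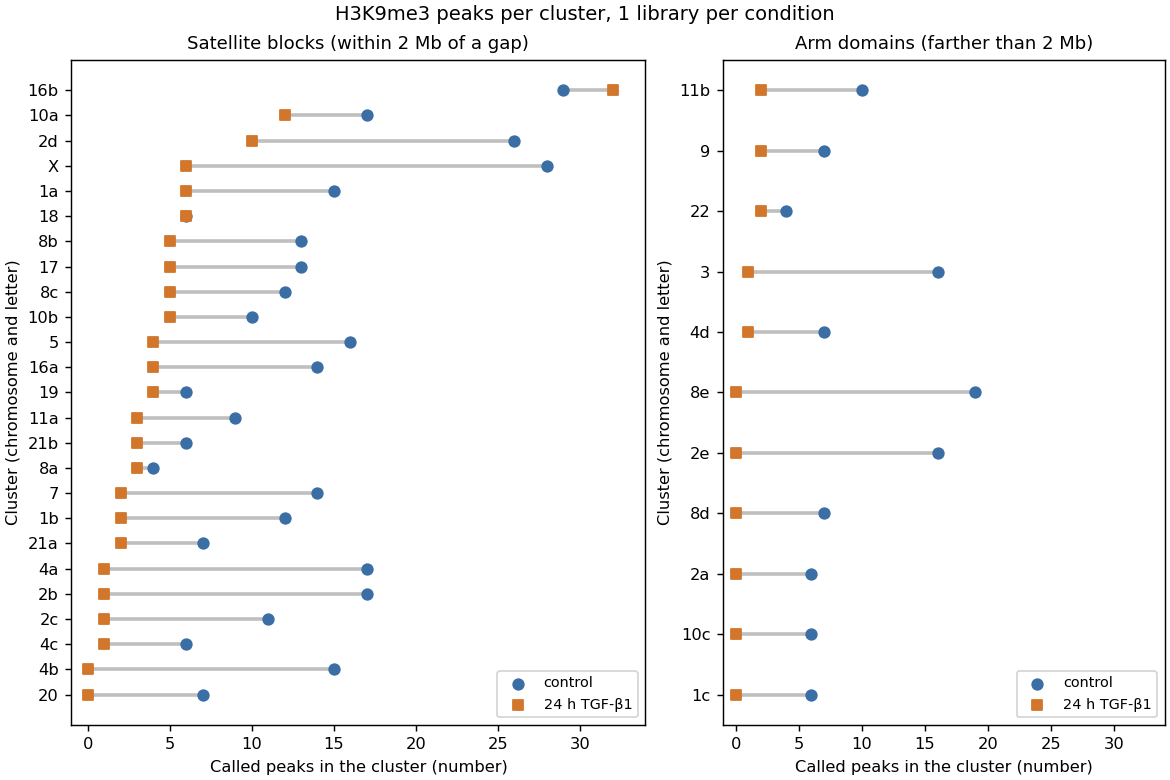
Number of called peaks (horizontal axis) in each satellite block (left) and arm domain (right), control as blue circles and 24 h as orange squares, 1 library each. Labels give the chromosome and the letter of the chain. Block 16b has more peaks at 24 h (32) than in the control (29), and 2 blocks and 6 domains have none at 24 h.

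Block 16b, at chromosome 16 from 46385944 to 46480330, was the sole block with more peaks at 24 h than in the control, 32 against 29. Its 24 h peaks were narrower, with a widest peak of 569 bp against 2162 bp in the control, and they covered 9.61 kb against 19.3 kb. In 5 cases 1 control peak contained or met several 24 h peaks, up to 3. Starts stood at a median spacing of 987 bp at 24 h, against 1537 bp for the control. Of its 29 control peaks 23 had a 24 h peak, and 30 of its 32 peaks at 24 h overlapped a control peak. The highest −log10 q of the block was 163.1 in the control and 191.6 at 24 h. The numbers were equal in block 18, at chromosome 18 from 18511060 to 18520323, with 6 peaks in each list, of which 5 control peaks and all 6 at 24 h were shared.

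After 16b, the block with the most peaks at 24 h was 10a on chromosome 10. Block 10a, from 42356159 to 42402105, held 17 control peaks and 12 at 24 h, and each of these 12 overlapped a control peak. Block 10b, from 42529292 to 42693400, held 10 and 5, with 4 shared. This block contains the peak with the highest −log10 q of both lists, at 42596880 to 42597176 in the control (1509, fold 3.45) and 42596895 to 42597168 at 24 h (2091, fold 3.20). The next peak in this order at 24 h lay in 10a, from 42395946 to 42396209, with 1287 and a fold of 3.23. In 10a the local background was a median of 153.1 times the genome-wide one for control peaks, against 171.5 times for those at 24 h, so low folds and high −log10 q values stood together. Counted over all peaks near the gaps of a chromosome, 26 of 44 control peaks on chromosome 16 had a 24 h peak. The count was 18 of 34 on chromosome 10, 5 of 10 on chromosome 18, 4 of 8 on chromosome 19 and 13 of 29 on chromosome 8. It was 2 of 44 on chromosome 4 and 0 of 10 on chromosome 15. The 24 h list had no peak anywhere on chromosome 15, where the control list also had 33 arm peaks.

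In several blocks the 24 h list held peaks at a smaller part of the control positions than in blocks 10a, 16b and 18. Over all blocks 31.2% of control peaks had a 24 h peak. Of the blocks that follow, 1a, 2d, 8b, 8c, 11a and 17 were above that share. Blocks 1b, 5, 7 and that of chromosome X were below it. In block 2d, at chromosome 2 from 92245007 to 92325297, 10 of 26 control peaks had a 24 h peak. The 16 others included 4 of the 6 control-only peaks with the highest −log10 q near gaps, among them 92313774 to 92314030 (412.0, fold 4.48) and 92310548 to 92310807 (377.2, fold 4.22). A 24 h peak lay 4061 and 835 bp from these. From the control-only peaks that began at 92291389 and 92324356 it lay 630 and 402 bp away. The other 2 of the 6 were in block 11a, at chromosome 11 from 51579421 to 51591331, where 3 of 9 control peaks had a 24 h peak. The median −log10 q of the shared control peaks in 2d was 95.8 and that of the control-only ones 131.4. On chromosome X, from 61683061 to 61734228, 5 of 28 control peaks had a 24 h peak. The 24 h list also had there a peak of its own, from 61720880 to 61721079, with the highest −log10 q (93.7) of the 24 h-only peaks near gaps. In block 5, from 49410150 to 49441002, 4 of 16 had one, and in block 17, from 22245585 to 22261650, 5 of 13. Block 1a, from 121354147 to 121485373, held 15 control peaks, of which 5 had a 24 h peak. Its strongest pair, from 121485078 to 121485373 in the control and 121485119 to 121485338 at 24 h, had a −log10 q of 1026 and 608.4, and at 24 h the highest pileup of that list, 4101 times the genome-wide background. In block 7, from 61079160 to 61243381, 2 of 14 control peaks had a 24 h peak, and in block 1b, from 143180859 to 143540598, 1 of 12 did. Around the centromere gap of chromosome 8, blocks 8b and 8c held 13 and 12 control peaks and 5 each at 24 h, all of these shared.

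**Figure D3:**
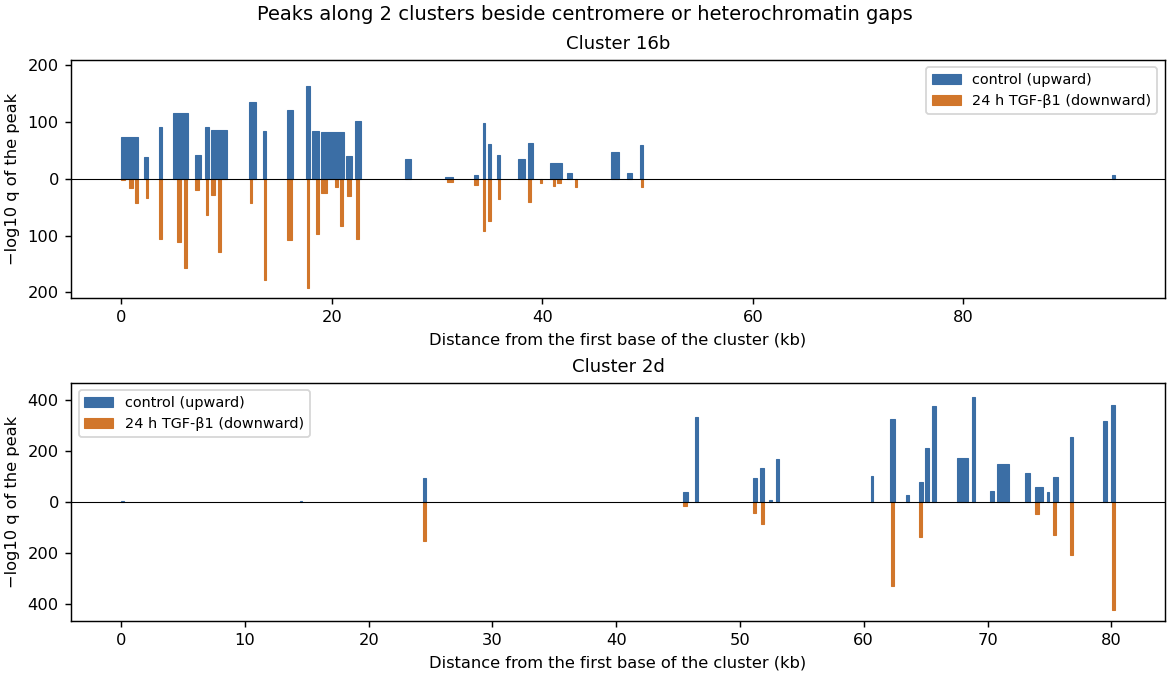
Peaks along blocks 16b and 2d, by distance from the first base of the block in kb (horizontal axis) and −log10 q (vertical axis), control upward and 24 h downward. Bars have the width of the peaks. In 16b most control peaks have a 24 h counterpart, while in 2d 16 of the 26 control peaks have none, some of them with a −log10 q over 300.

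The blocks of chromosome 4 had few peaks at 24 h. The 3 blocks from 49093910 to 49155764 (4a), 49280724 to 49333594 (4b) and 49634690 to 49652843 (4c) held 38 control peaks and 2 at 24 h, both shared. Those 38 had a median −log10 q of 11.4, a highest value of 43.4 and a median width of 289.5 bp. The blocks of chromosome 2 that lay farther from the gap held 28 control peaks. These were 2b, from 90285437 to 90482247, and 2c, from 91597283 to 91694146, and they had no shared peak and 1 peak each that was called at 24 h alone. Their control peaks had a median −log10 q of 7.02 and a highest of 15.9. Block 20, from 29518292 to 29651912, held 7 control peaks and none at 24 h. The 4 blocks without any shared peak (2b, 2c, 4b and 20) had 50 control peaks with a median −log10 q of 7.02. The 5 blocks with 50% or more of their control peaks shared (8a, 10a, 16b, 18 and 19) had 62 with a median of 86.5.

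Beside the shared positions, 27 peaks near gaps were called at 24 h alone, and 9 of them had a control peak within 5 kb. Their median width was 206.0 bp and their median −log10 q 5.85, against 245.0 bp and 55.7 in the 120 shared ones. The highest fold among them, 7.58, was on chromosome 20 from 26302304 to 26302515. On chromosome 4 a peak from 49514501 to 49514698, between blocks 4b and 4c, reached 5.10 with a −log10 q of 25.2.

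Shared peaks were narrower in the 24 h list. Each of the 135 shared 24 h peaks met 1 control peak, which gave 135 pairs. The pairs involve 126 control peaks, because 7 wide ones met 2 or more 24 h peaks and count once per pair here. In 117 of the pairs the 24 h peak was the narrower, and in 100 it lay wholly inside the control peak. Median widths over the pairs were 365.0 bp and 251.0 bp. With each of the 126 control peaks taken once, their median width was 347.0 bp. Among peaks of at least 1000 bp, there were 14 in the control, 9 of them shared, and 1 at 24 h. That one lay on chromosome 6 from 58776383 to 58779342, with 2960 bp, a fold of 1.32, inside a control peak of 3119 bp. The summit pileup of a peak, solved from its fold and p value, was a whole number of fragments in both lists for 114 pairs. In multiples of each library's genome-wide background its median was 196.6 in the control and 127.7 at 24 h, and it was the lower at 24 h in 81 of 114. Near gaps it was the lower in 69 of 101 pairs and on the arms in 12 of 13. The local background was the lower at 24 h in 57 of the 114. The pair farthest apart was on chromosome 9, from 66971101 to 66971409 in the control (1425 times) and 66971320 to 66971530 at 24 h (47.7 times), followed by the pair in ATR. On chromosome 9 the 24 h peak began 219 bp and ended 121 bp beyond the control peak's edges. The 2 peaks overlapped only in part, so their summits need not be at the same position.

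**Figure D4:**
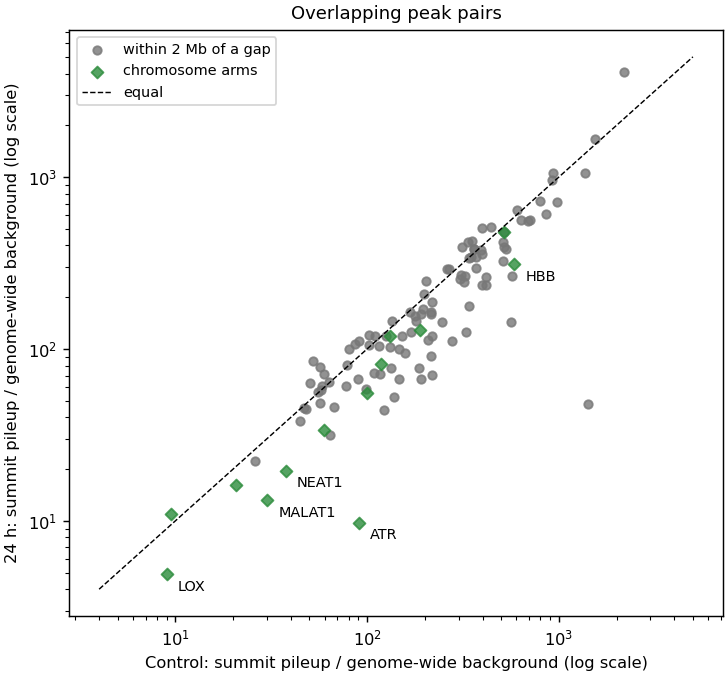
Summit pileup over the genome-wide background of the same library, control (horizontal axis) against 24 h (vertical axis), both on log scales, for the 114 overlapping pairs with whole pileups. Grey circles lie near gaps and green diamonds on the arms, and the dashed line marks equal values. The pair at ATR, with 90.6 and 9.77, stands far below the line, and the pair on chromosome 9, with 1425 and 47.7, farther still. The peaks of the chromosome 9 pair overlap only in part.

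The 11 arm domains held 104 control peaks and 8 at 24 h, and 5 of the 104 had a 24 h peak (4.81%, beside 1.71% of all control peaks on the arms and 10.2% of all control peaks). Of the domains, 5 had a 24 h peak and 6 had none. The 6 without, with 60 control peaks, had a median −log10 q of 5.13, a highest of 33.1 and widths from 181 to 925 bp. By general knowledge of hg19, several lie in tandem gene arrays. Domain 1c, from 228744262 to 228780893 on chromosome 1, lies in the array of 5S ribosomal RNA genes (RNA5S), and its 6 control peaks had folds of up to 4.04. Domains 8d and 8e, from 86560928 to 86572189 and from 86730669 to 86833510 on chromosome 8, lie in the REXO1L array of exonuclease-like pseudogenes. Their 26 control peaks had a median fold of 2.91 and a median −log10 q of 5.01. Domain 10c, from 135478258 to 135501068 at the end of the long arm of chromosome 10, lies in an array of DUX4-like repeats. Its strongest control peak, from 135490990 to 135491568, had a −log10 q of 19.2. Domain 2e, from 133011920 to 133036048 on chromosome 2, held 16 control peaks at a median spacing of 904 bp and a highest −log10 q of 26.5. Reads from such arrays can map to any copy, so a peak cannot be placed at 1 copy. These names were given after the peaks were seen. Of the 5 domains with a 24 h peak, 3 had a shared one: the domains at ATR and at NEAT1 and MALAT1, described next, and that of chromosome 22, from 18878387 to 18884107, with 4 control peaks and 2 at 24 h, both shared. In domain 9, from 68380392 to 68482803, the 7 control peaks and 2 peaks at 24 h did not overlap, nor did the 7 and 1 of domain 4d, from 190817965 to 191003823.

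The control peaks with the highest folds lay in 2 genes, and all but 1 of the peaks in these genes had no 24 h counterpart. ATR encodes the kinase that signals replication stress, and THAP9 encodes a protein related to a DNA transposase. Of the 14 control peaks with a fold of 10 or more, 10 lay in ATR, 3 in THAP9 and 1 on chromosome 17 from 44073764 to 44074033, and the 24 h list had no peak with such a fold. ATR held 16 control peaks, with folds from 7.53 to 35.7 (median 12.3), −log10 q from 15.9 to 195.2 and widths from 180 to 879 bp. They stood between 15.7 and 119.9 kb from the 5′ start of the gene, with a median spacing of 3748 bp. A single one of them, from 142281074 to 142281952 on chromosome 3, had a 24 h peak, from 142281074 to 142281891. Both began at the same base. The fold there was 31.3 in the control and 7.37 at 24 h, and the summit pileup, over the genome-wide background, 90.6 and 9.77. The peak with the highest control fold, 35.7, from 142274719 to 142275417, had no 24 h peak although its −log10 q was 130.8. The median local background of the ATR control peaks was 1.197 times the genome-wide one. It was 1.40 times for all 820 control arm peaks and 17.7 times for the 417 near gaps, so a low value is usual on the arms. THAP9 held 3 control peaks, with folds of 10.04, 13.3 and 17.4, the widest of 1980 bp from 83838095 to 83840074 on chromosome 4, and none at 24 h. The source of the DNA under the peaks of either gene was not tested.

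**Figure D5:**
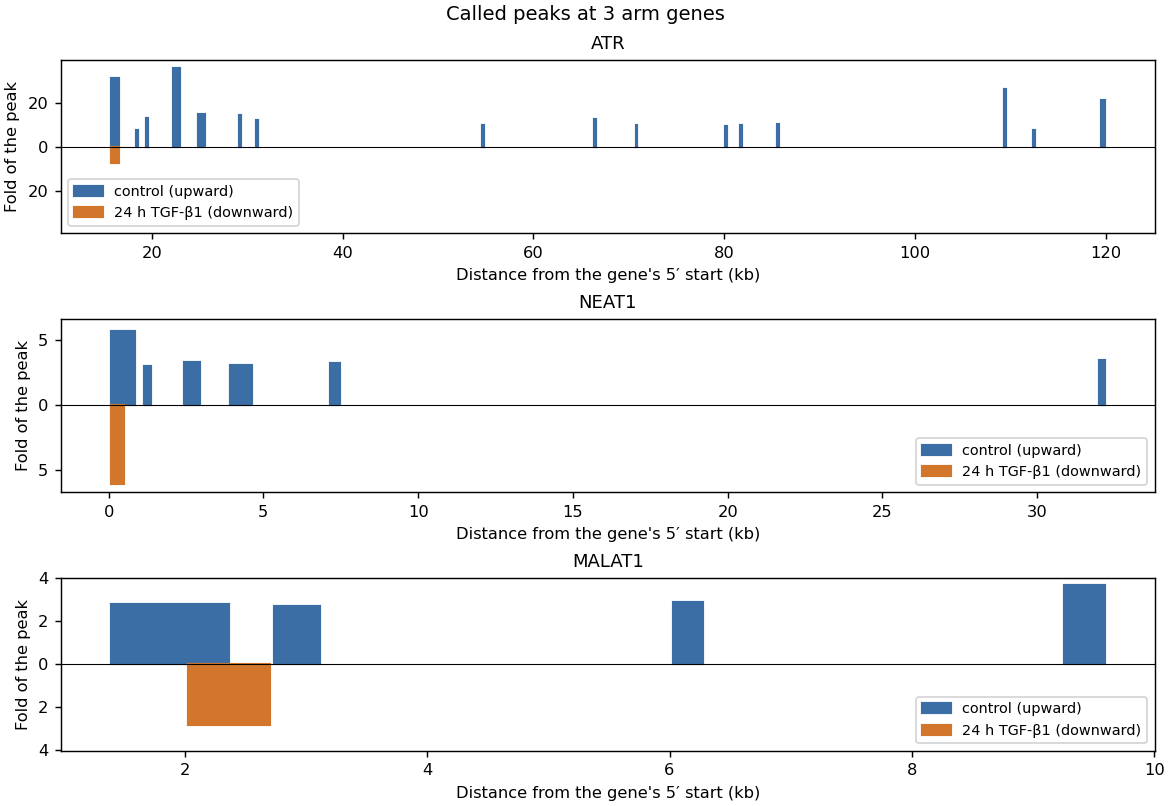
Called peaks at ATR, NEAT1 and MALAT1 by distance from the 5′ start of the gene in kb (horizontal axis) and fold of the peak (vertical axis), control upward and 24 h downward. Bars have the width of the peaks, and peaks up to 10 kb outside the genes are drawn. ATR has 16 control peaks and 1 at 24 h, and the 24 h peak in NEAT1 begins 87 bp from the 5′ start.

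A list of 38 named loci was examined, with intervals entered by hand on hg19. Within them lay 30 control peaks, of which 5 had an overlapping 24 h peak, and 7 peaks at 24 h, of which 5 overlapped a control peak. Over all peaks these shares were 10.2% and 51.1%. Of the loci, 7 held a control peak and 7 a 24 h peak, and 5 held both. The share of 5 in 30 rests on the choice of loci, and 16 of the 30 lay in ATR alone.

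Of 7 genes of abundant noncoding RNAs, 3 held a control peak, 4 held a 24 h peak, and 2 had none within 10 kb in either list. NEAT1, which scaffolds paraspeckles, and MALAT1, an RNA of nuclear speckles, are neighbours on chromosome 11 and form domain 11b, with 10 control peaks and 2 at 24 h, both shared. NEAT1 held 5 control peaks with folds from 3.06 to 5.74. Its strongest, from 65190314 to 65191099, began 69 bp from the 5′ start and had a −log10 q of 27.4. The 24 h peak, from 65190332 to 65190735, lay inside it, with a fold of 6.05 and a −log10 q of 20.6. Summit pileups were 37.6 (control) and 19.5 (24 h) times the genome-wide background, and local backgrounds 6.12 and 2.92 times. MALAT1 held 3 control peaks with folds from 2.68 to 2.88 and a 24 h peak from 65267256 to 65267934 with a fold of 2.80. There the pileups were 30.2 and 13.1 times the genome-wide background at the overlapping pair.

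The small RNA genes behaved differently from each other. RN7SK, which encodes the 7SK RNA that restrains the elongation factor P-TEFb, held a control peak from 52860477 to 52860657 on chromosome 6 (fold 3.26, −log10 q 45.1) and none at 24 h. RN7SL1 and RN7SL2 encode the RNA of the signal recognition particle, and they held a peak at 24 h alone. On chromosome 14 these were 50053351 to 50053549 at RN7SL1 (fold 3.49, −log10 q 31.9) and 50329311 to 50329510 at RN7SL2 (fold 2.39, −log10 q 24.96). The local background was 36.0 times the genome-wide one at the RN7SK peak, and 15.7 and 34.8 times at the RN7SL1 and RN7SL2 peaks. Each of these values belongs to the list that held the peak, and the background at the same place in the other library is not known. The absence of a call at these loci does not show that signal was missing. The RN7SL copies are nearly identical, and reads may be split between them. RMRP and RPPH1 had no peak within 10 kb in either list.

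At the globin genes the lists shared 1 peak. HBB, the adult β-globin gene on chromosome 11, held a control peak from 5247896 to 5248280 and a 24 h peak from 5247893 to 5248282, so that the edges differed by 3 and 2 bp. Folds were 2.03 and 2.34, and −log10 q 93.2 and 96.4. The pileup was 585.9 and 309.9 times the genome-wide background and the local background 288.3 and 132.0 times. HBD, HBG1, HBG2 and HBE1 held no peak inside. The 24 h list had 2 more peaks in this region with no control counterpart. One, with edges at 5221581 and 5222270, reached a fold of 8.19, the highest in that list, and the other, from 5259199 to 5260000, had a fold of 5.46 and lay 3341 bp from HBD. The α-globin genes on chromosome 16 were added after the peaks had been seen. Their 3 control peaks, at 222907 to 223277 and 223469 to 223654 in HBA2 and 226711 to 227067 in HBA1, had folds from 1.54 to 2.04. The 24 h list had 1 peak, at 227289 to 227509 in HBA1, with a fold of 2.54, which overlapped none of them. HBA1 and HBA2 are nearly identical, so the copy is uncertain.

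Genes of the TGF-β pathway and of the epithelial-mesenchymal transition were mostly without a peak. Of 12 pathway loci, 11 had no peak within 10 kb in either list. These were the ligand TGFB1, the receptors TGFBR1 and TGFBR2, the receptor-activated SMAD2 and SMAD3, their partner SMAD4, the inhibitory SMAD7, the target genes TGFBI, CCN2 and ID1, and the integrin gene ITGA3. The exception was LOX, the lysyl oxidase that crosslinks collagen and elastin. It held a control peak on chromosome 5 from 121412659 to 121413174 (fold 5.05, −log10 q 5.17) and a 24 h peak from 121412980 to 121413172 (fold 3.82, −log10 q 1.72). The 24 h peak lay 808 to 1000 bp into the gene and was 193 bp wide against 516 bp. Its summit was at the lowest multiple of the background that the 24 h list called, 4.88, against 9.01 in the control. The 12 transition genes had no peak within 10 kb in either list. They were the cadherin genes CDH1 and CDH2, the filament gene VIM, the matrix genes FN1 and COL1A1, the metalloproteinase genes MMP2 and MMP9, and the transcription factor genes SNAI1, SNAI2, TWIST1, ZEB1 and ZEB2. How many of all genes have a peak within 10 kb was not counted, so these absences are not a result about these genes.

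The other arm peaks called in both lists were few. Chromosome 22 had 18 control peaks on its arm and 3 at 24 h, all shared, at 18717968 to 18718207, 18878427 to 18878652 and 18883732 to 18884072. The first of these had a fold of 3.24 at 24 h and 8.89 in the control. The 3 peaks lay 2717968, 2878427 and 2883732 bp from the nearest gap, not far beyond the limit of 2 Mb. With a limit of 5 Mb, 11 of 754 control arm peaks had a 24 h peak. The arm peak with the highest −log10 q at 24 h, 192.9, was on chromosome 4 from 68265488 to 68266031, and its control counterpart had 175.0. On chromosome 18 the control peak from 107890 to 109435 met 2 peaks at 24 h, from 108012 to 108504 and from 108858 to 109345. Over the 15 arm pairs the fold was the lower at 24 h in 11. On chromosome 9, the control peak from 69710952 to 69711259, with a −log10 q of 1080 and a fold of 2.30, had none at 24 h. It had 308 bp and a pileup of 1412 times the genome-wide background. The control peak from 66971101 to 66971409 on this chromosome was nearly equal, with 309 bp, a fold of 2.29 and 1425 times. Whether the 2 places share reads was not tested, so they may not be separate cases.

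The 24 h list had 102 arm peaks that overlapped no control peak. They were weak, with a median −log10 q of 2.99 and a median fold of 3.78, and 16 of them reached a −log10 q of 5. Of the 102, 75 had no control peak within 100 kb, and the median distance to one was 324 kb. The highest −log10 q among them, 130.3, was at chromosome 1 from 569302 to 569507. The next after the RN7SL genes and HBA1 by −log10 q was the peak near HBB of fold 8.19. By fold, it was followed by chromosome 5 from 161594903 to 161595224 (5.73) and chromosome 16 from 33046762 to 33047013 (5.59). By chromosome, arm peaks at 24 h were most numerous on chromosomes 5 (17, of which 1 was shared), 8 (14, none shared), 10 (13, none shared) and 14 (11, of which 1 was shared). The control list had 66, 103, 44 and 61 arm peaks there.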

How the data were processed

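H3K9me3 ChIP-seq peak lists of 1 control library and 1 library after 24 h of TGF-β1 were used. Per the submitters' processing notes, the tools were BWA, Trimmomatic, FastQC 0.11.9 and, for peaks, MACS2 2.1.1.20160309, on hg19 (GRCh37), with caller options not given in the sources used here. The authors deposited 1 list per library, with the fold enrichment as a linear ratio, −log10 p, −log10 q and a score of each peak. Chromosome Y was left out. Overlap meant at least 1 bp. Positions are 1-based on hg19.

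Positions of gaps and loci in hg19 were typed in by hand from general knowledge. All 38 loci matched RefSeq GRCh38 in chromosome and 33 in length within 5%. Results at some loci outside these 38 are not reported here. Sequences under the peaks were not used here.

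Summit pileup and local background were solved with the Poisson model that MACS2 uses, from each fold and its −log10 p, with 1 added to each in the fold, and the solver was tested on simulated data. Pileups came out whole within 0.01 of a step for 98.9% of control and 92.4% of 24 h peaks. Use of the input for the background is inferred. Intervals are exact (Clopper-Pearson) 95% binomial intervals. Peaks named are the 6 highest by −log10 q or fold in each class, clusters of at least 6 peaks and the listed loci. Others were named after their values were seen: the peaks at the α-globin genes, peaks that define a width or a neighbouring position, and shared arm peaks. The peaks, loci and lists were chosen with earlier results of these data known. Python 3.11.15, pandas 2.3.3 and SciPy 1.17.1 were used.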

Additional observations from a re-analysis of the deposited data

How the results depend on the processing

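No paired analysis was possible because the control and the 24 h group are 1 library each. Of 43 alternatives, 25 left a share within its interval or a count within 1.5 times, and 18 moved it. With both lists at a −log10 q of at least 5, 25.2% of control peaks and 79.2% of 24 h peaks overlapped, with 34.4% of the control peaks near gaps and 7.01% on the arms, and 2 of 4 arm domains had a 24 h peak. With folds at or above the list medians the first 3 shares were 2.08%, 9.85% and 6.48%. With the control list cut to the length of the 24 h list by −log10 q, the 4 shares were 40.9%, 44.3%, 47.8% and 15.8%. Counting peaks within 1 kb as shared gave 13.99% of control peaks and 37.2% near gaps. With centromere gaps alone the arm share was 4.47%. Leaving out block 16b, chosen after the data were seen, gave 8.53% of control peaks. Arm domains with a 24 h peak, 5 of 11 as reported, were 2 of 4 with at least 10 peaks and 3 of 10 with chains of control peaks alone. The share near gaps was above that on the arms in each of the 7 settings that gave both. The causes of the shifts were not tested.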
